A study of Mus musculus with 18 samples.

Results

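Retinoic acid is a hormone-like derivative of vitamin A, and 9 mouse genes of its handling and sensing were followed through RNA sequencing of Kupffer cells, the macrophages that line the liver sinusoids. The 9 genes were Rbp4, Lrat, Rdh10, Dhrs3, Aldh1a1, Cyp26b1, Rara, Rarb and Rxra. They were found by symbol in all 3 deposited tables, which hold 18853 genes (0 h and 3 h), 18373 genes (6 h and 12 h) and 24781 genes (the antibody groups). The set was chosen by the measured levels of Cyp26b1, which were higher with anti-CD41 than with IgG in these data, so values of the 9 genes between the antibody groups are given as a description without a test.

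All 18 libraries came from wild-type C57BL/6J mice and form 6 groups of 3. A time course after acetaminophen, a drug whose overdose injures hepatocytes, has libraries at 0 h, 3 h, 6 h and 12 h. The other 2 groups received acetaminophen with an antibody to CD41, a platelet surface protein, or the drug with IgG. Platelets can be depleted with such an antibody. Their labels state no time, antibody dose or acetaminophen dose. The 0 h columns are named for PBS while the treatment label of these samples names acetaminophen, so they are described by time alone. Cells were obtained by liver perfusion with collagenase, a density gradient and brief adherence, and by the labels' protocol the gradient fraction holds sinusoidal endothelial cells as well as Kupffer cells. Nothing in the labels tells whether replicates are separate animals, so a p-value here reflects the spread among the samples, and that spread may be technical.

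Library totals lay between 18644358 and 19954270 counts in the table of 0 h and 3 h, between 19024975 and 20583099 in that of 6 h and 12 h, and between 28017439 and 38382509 in the third table. The 12 fixed Kupffer cell markers, such as Clec4f, Vsig4 and Timd4, summed to between 6997 and 14268 CPM in every library, so RNA of the labelled cell type was present. Among them, Cdh5 is also on the sinusoidal endothelial list. CPM is the count of a gene divided by the library total and multiplied by 1000000. Markers of other liver cells were present beside them. Over the 18 libraries the 14 sinusoidal endothelial markers summed to 2137 to 15373 CPM, the 14 hepatocyte markers to 981 to 8152 CPM and 13 stellate cell markers other than Lrat to 130 to 1058 CPM. With anti-CD41 the endothelial sums (11459, 15373 and 15270 CPM) lay above the Kupffer sums (6997, 11914 and 11295 CPM). With IgG they lay below (5104, 8097 and 8732 against 7906, 9846 and 8894 CPM). In the time course they lay above only in 0 h replicate 2, 3 h replicate 2 and 12 h replicate 1. In such bulk RNA, fewer cells of a type and less RNA per cell cannot be told apart. The 12 h replicate 3 library stood apart, with the lowest endothelial sum of all 18 libraries.

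Retinol travels in blood bound to the carrier that Rbp4 encodes, and stellate cells of the liver store it as retinyl esters made by the enzyme Lrat. Cells oxidise retinol to retinal and then, irreversibly, to retinoic acid, which enzymes of the Cyp26 family degrade. Retinoic acid acts through nuclear receptors of the Rar family paired with Rxr partners, which bind paired short sites in DNA, and genes for its own breakdown and sensing are among its classical targets.

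Promoter sequences were taken from RefSeq on build GRCm38.p6, 250 bases before to 50 after each annotated start, and 8 of the 9 genes, all but Rdh10, had an entry. The promoters of Rarb, Cyp26b1, Lrat and Dhrs3 are printed because these 4 genes were the ones whose anti-CD41 libraries all lay above the IgG libraries. They lie on GRCm38.p6 at chr14:16575427-16575726 (minus strand, Rarb), chr6:84593761-84594060 (minus strand, Cyp26b1), chr3:82903925-82904224 (minus strand, Lrat) and chr4:144892577-144892876 (plus strand, Dhrs3, the first of its 3 promoters). Capitals mark a DR5 motif, which is a direct repeat of 2 receptor core sites with 5 bases between them.
Rarb: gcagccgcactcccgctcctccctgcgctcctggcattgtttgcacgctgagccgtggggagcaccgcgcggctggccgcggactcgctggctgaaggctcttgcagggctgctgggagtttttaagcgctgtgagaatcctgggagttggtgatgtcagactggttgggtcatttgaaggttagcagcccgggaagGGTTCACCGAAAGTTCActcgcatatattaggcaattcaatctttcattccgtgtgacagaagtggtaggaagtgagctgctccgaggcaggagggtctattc
Cyp26b1: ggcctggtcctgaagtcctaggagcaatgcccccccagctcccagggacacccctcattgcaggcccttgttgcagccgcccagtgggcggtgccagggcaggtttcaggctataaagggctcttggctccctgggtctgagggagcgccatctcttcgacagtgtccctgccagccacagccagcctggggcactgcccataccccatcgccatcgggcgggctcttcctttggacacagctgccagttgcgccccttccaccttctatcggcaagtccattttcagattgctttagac
Lrat: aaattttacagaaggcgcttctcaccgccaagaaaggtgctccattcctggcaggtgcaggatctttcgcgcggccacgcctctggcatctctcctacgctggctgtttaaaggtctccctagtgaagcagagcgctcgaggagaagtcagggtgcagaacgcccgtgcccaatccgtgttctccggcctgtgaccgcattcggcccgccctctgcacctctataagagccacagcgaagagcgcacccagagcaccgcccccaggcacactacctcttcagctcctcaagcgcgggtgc
Dhrs3: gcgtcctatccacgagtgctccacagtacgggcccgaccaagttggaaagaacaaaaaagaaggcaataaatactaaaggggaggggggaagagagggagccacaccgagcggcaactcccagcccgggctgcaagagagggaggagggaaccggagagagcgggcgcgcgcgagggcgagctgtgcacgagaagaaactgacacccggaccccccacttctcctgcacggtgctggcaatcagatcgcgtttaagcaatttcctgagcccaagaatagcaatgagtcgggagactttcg

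The DR5 match in the Rarb promoter, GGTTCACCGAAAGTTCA, spans bases -53 to -37 from the start, on the strand of the gene. Both strands of each window were searched for direct repeats of the core site with 0 to 5 bases between them (DR0 to DR5). DR5 was found in 32 of 32851 promoters of the whole table (0.0974%), and Rarb was the sole gene of the 8 searched with a DR0 to DR5 match in these windows. Single core sites are common: AGGTCA was present in 16.3% and AGTTCA in 14.0% of all promoters. AGTTCA was found in the third listed promoter of Rara and, as part of the DR5 match, in Rarb. AGGTCA was found in the fourth promoter of Rara and, at 2 positions, in the second of Rxra. A match describes letters in the window, and its absence says only that these letters are not in this window. The searched Rarb window lies inside the annotated span of the gene, chr14:16430839-16819156, away from its outer start. CPM counts the whole gene, so no level is assigned to this start.

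On the FPKM scale, which corrects for gene length and was deposited for the time course, Rbp4 had the highest mean level of the 9 genes at 0 h, 3 h and 12 h and Rxra at 6 h. Lrat had the lowest mean level at each of the 4 times. At 0 h, mean FPKM was 237 ± 103 for Rbp4, 91.9 ± 47.6 for Aldh1a1, 69.1 ± 24.0 for Rxra, 64.0 ± 15.2 for Dhrs3 and 50.4 ± 40.7 for Cyp26b1 (SD, n = 3 each). The receptors Rara and Rarb had 31.1 ± 3.59 and 6.78 ± 1.72 FPKM there, and Rdh10 and Lrat had 5.77 ± 1.27 and 3.20 ± 2.46 FPKM. All levels below are CPM, which compare one gene between samples.

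**Figure D1:**
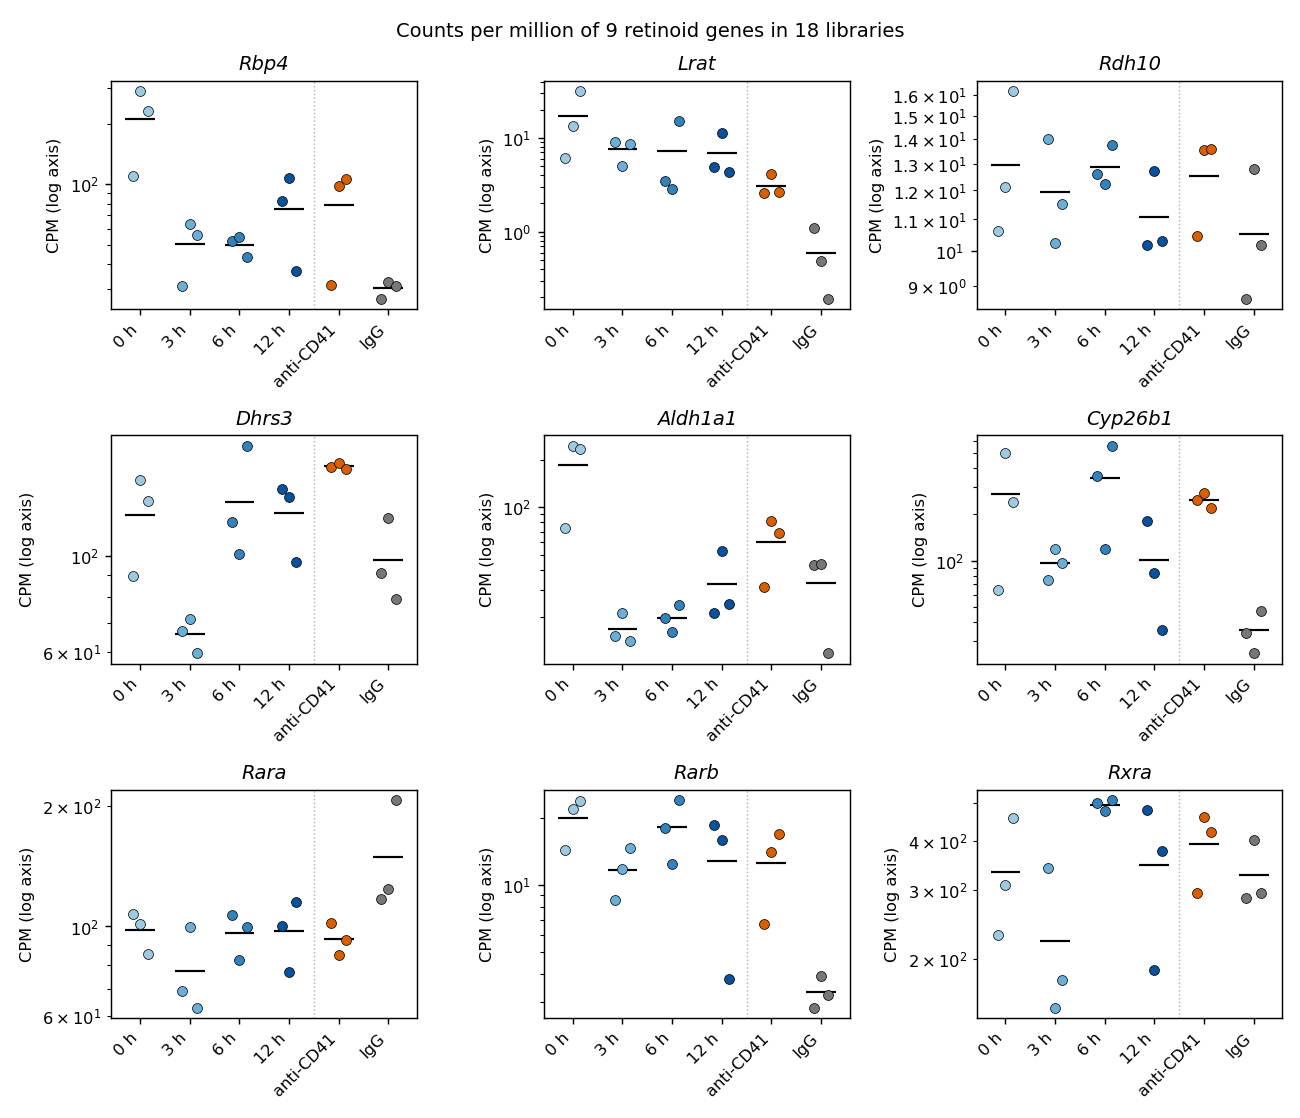
CPM (log axis) of the 9 genes in each library, by group, with replicates 1 to 3 from left to right as points and the group mean as a line. The dotted line parts the time course from the antibody groups, which come from another table. The 3 anti-CD41 libraries sit between 221 and 276 CPM for Cyp26b1, all above the IgG libraries at 25.0 to 47.3 CPM.

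The genes differed widely in how far they varied. Rdh10 was the steadiest of the 9, with its highest library 1.86 times its lowest over all 18. Dhrs3, Rara and Rxra spanned ratios of 3.01, 3.28 and 3.38. Rarb spanned 8.54, Rbp4 10.7, Aldh1a1 20.7 and Cyp26b1 22.4. Lrat spanned the widest ratio of the 9, 163, at levels of 0.193 to 31.4 CPM. For Cyp26b1 much of the span lay within groups: its 3 libraries at 0 h differed 7.82-fold, those at 6 h 4.73-fold and those at 12 h 5.17-fold, whereas the anti-CD41 libraries differed 1.25-fold.

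The levels of each gene over the 6 groups are given next in CPM as mean ± SD (n = 3 each), across tables that were made separately, so no test is set across them. Cyp26b1 averaged 270 ± 221 at 0 h, 97.2 ± 22.6 at 3 h, 345 ± 221 at 6 h and 100.3 ± 74.9 at 12 h, with 248 ± 27.3 with anti-CD41 and 35.3 ± 11.3 with IgG. In the order of its means, 6 h, 0 h and anti-CD41 overlapped as neighbours, 12 h and 3 h overlapped, and the IgG libraries lay below all 3 h libraries. The lowest 12 h library, at 35.3 CPM, lay inside the IgG range of 25.0 to 47.3 CPM. Lrat averaged 17.0 ± 13.02 at 0 h, 7.56 ± 2.19 at 3 h, 7.19 ± 6.98 at 6 h and 6.84 ± 3.84 at 12 h, with 3.11 ± 0.879 with anti-CD41 and 0.594 ± 0.467 with IgG. Its time-course groups overlapped as neighbours, and the IgG group was the lowest of the 6 without overlap. Rarb averaged 20.1 ± 5.01 at 0 h, 11.7 ± 3.04 at 3 h, 18.2 ± 5.83 at 6 h and 12.8 ± 7.91 at 12 h, with 12.6 ± 5.32 with anti-CD41 and 3.32 ± 0.549 with IgG. Its IgG libraries were again below the neighbouring 3 h group without overlap, and all other neighbours overlapped. The lowest 12 h library of Rarb, at 3.80 CPM, also lay inside the IgG range, which was 2.82 to 3.91 CPM. Rbp4 averaged 210 ± 91.6 at 0 h, above the next group without overlap, then 50.2 ± 16.8 at 3 h, 50.0 ± 5.72 at 6 h and 75.5 ± 35.6 at 12 h, with 78.3 ± 40.7 with anti-CD41 and 30.3 ± 3.03 with IgG. Aldh1a1 averaged 184 ± 95.3 at 0 h, 16.9 ± 3.91 at 3 h, 19.9 ± 3.88 at 6 h and 32.7 ± 17.4 at 12 h. It averaged 60.3 ± 26.0 with anti-CD41 and 32.9 ± 18.3 with IgG. With the groups ordered by mean, each overlapped its neighbour, but every 0 h library lay above every 3 h library. Dhrs3 was lowest at 3 h, below its neighbour without overlap, and Rara was highest with IgG, above its neighbour without overlap. Rxra had its highest mean at 6 h, at 476 to 507 CPM, above the neighbouring anti-CD41 group without overlap. The 12 h group reached 479 CPM and so overlapped the 6 h group. For Rdh10 every neighbouring pair of groups overlapped.

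The first tested comparison was 3 h against 0 h, the early response to acetaminophen. Of the 9 genes, 3 fell and 0 rose: Aldh1a1, which oxidises retinal to retinoic acid, the retinol carrier Rbp4, and Dhrs3, a reductase that returns retinal to retinol. All 9 log2 fold changes were below 0, with a median of -0.84, whereas the median over all 14161 genes tested was -0.01. Across all genes, 42.1% were called (edgeR quasi-likelihood test, Benjamini-Hochberg adjusted p under 0.05), 23.0% lower and 19.1% higher, so falls and rises were frequent at this time. In numbers, 2703 genes were called higher and 3264 lower by edgeR, against 1783 and 3381 by limma on log2(FPKM + 1), a scale on which the median of all genes was -0.11 and on which 3 of the 9 genes were called, all lower. The groups of 54.6% of all genes did not overlap, 32.2% lower and 22.4% higher at 3 h, against 3 of the 9, all lower.

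Aldh1a1 had 15.2, 21.4 and 14.2 CPM at 3 h, against 74.3, 245 and 233 CPM at 0 h. Every 3 h library lay below every 0 h library, and replicate 1 was the lowest of the 0 h libraries. The fall was -3.37 ± 0.46 on the log2 scale (SE), an edgeR adjusted p of 0.00337. Rbp4 had 31.3, 63.3 and 55.9 CPM at 3 h, against 109, 289 and 231 CPM at 0 h, with no overlap. Its log2 fold change was -1.98 ± 0.41 (SE, edgeR adjusted p = 0.0104). Dhrs3 had 66.9, 71.2 and 59.5 CPM at 3 h, against 89.7, 149 and 134 CPM at 0 h. These groups did not overlap either, and the log2 fold change was -0.84 ± 0.19 (SE, edgeR adjusted p = 0.0123). Without 3 h replicate 3 the adjusted p for Dhrs3 was 0.0532.

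Markers of other cell types moved with these falls. The 14 hepatocyte markers summed to 1597, 3917 and 2949 CPM at 3 h, against 4479, 8042 and 8152 CPM at 0 h, and 9 of the 14 were called lower and 0 higher. Replicate 1 of 0 h was the lowest of its group for this sum as it was for Rbp4, Aldh1a1 and Dhrs3. Of the 8 monocyte-derived macrophage markers 6 fell and 0 rose, and of the 9 neutrophil markers 6 rose and 0 fell. All 6 tested platelet markers rose, with sums of 146, 180 and 180 CPM at 3 h, against 64.3, 58.3 and 52.6 CPM at 0 h. Of 12 stellate cell markers without Lrat, 2 fell and 0 rose, and of 14 sinusoidal endothelial markers 3 rose and 2 fell. The part of these markers in the falls of Aldh1a1, Rbp4 and Dhrs3 was not tested.

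Among the genes that did not pass, Cyp26b1, which degrades retinoic acid, had 74.6, 120 and 97.0 CPM at 3 h, against 64.5, 505 and 242 CPM at 0 h. The groups overlapped through 0 h replicate 1, and the log2 fold change was -1.40 ± 0.65 (SE, edgeR adjusted p = 0.121). Lrat, which makes retinyl esters, had 9.05, 5.04 and 8.58 CPM at 3 h, against 6.06, 13.4 and 31.4 CPM at 0 h (log2 fold change -1.07 ± 0.55 SE, edgeR adjusted p = 0.158). Rarb, the receptor gene whose searched promoter window holds the DR5 match, had 8.63, 11.8 and 14.7 CPM at 3 h, against 14.4, 22.1 and 23.8 CPM at 0 h (log2 fold change -0.69 ± 0.27 SE, edgeR adjusted p = 0.0771). In both, the groups overlapped through the lowest 0 h library. Without 0 h replicate 1, 6 of the 9 genes were called lower, the added genes being Cyp26b1 (edgeR adjusted p = 0.00867), Lrat (0.0261) and Rarb (0.0311). In that fit, 3521 of all 14401 genes tested were called lower and 2671 higher. In the other direction, the log2 fold change of Cyp26b1 was -0.55 without 0 h replicate 2, and that of Lrat was -0.32 without 0 h replicate 3.

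The remaining receptor genes and Rdh10 showed overlapping groups. Rara, which encodes the retinoic acid receptor alpha, had 69.3, 99.9 and 62.8 CPM at 3 h, against 108, 101.3 and 85.3 CPM at 0 h. Its log2 fold change was -0.27 ± 0.19 (SE, edgeR adjusted p = 0.277). Rxra, the partner receptor, had 341, 150 and 177 CPM at 3 h, against 230, 309 and 458 CPM at 0 h, a log2 fold change of -0.51 ± 0.35 (SE, edgeR adjusted p = 0.269). Its 3 h replicate 1 lay above all but the highest 0 h library. Rdh10, which oxidises retinol to retinal, had 14.0, 10.2 and 11.5 CPM at 3 h, against 10.6, 12.1 and 16.2 CPM at 0 h (log2 fold change -0.04 ± 0.19 SE, edgeR adjusted p = 0.867).

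**Figure D2:**
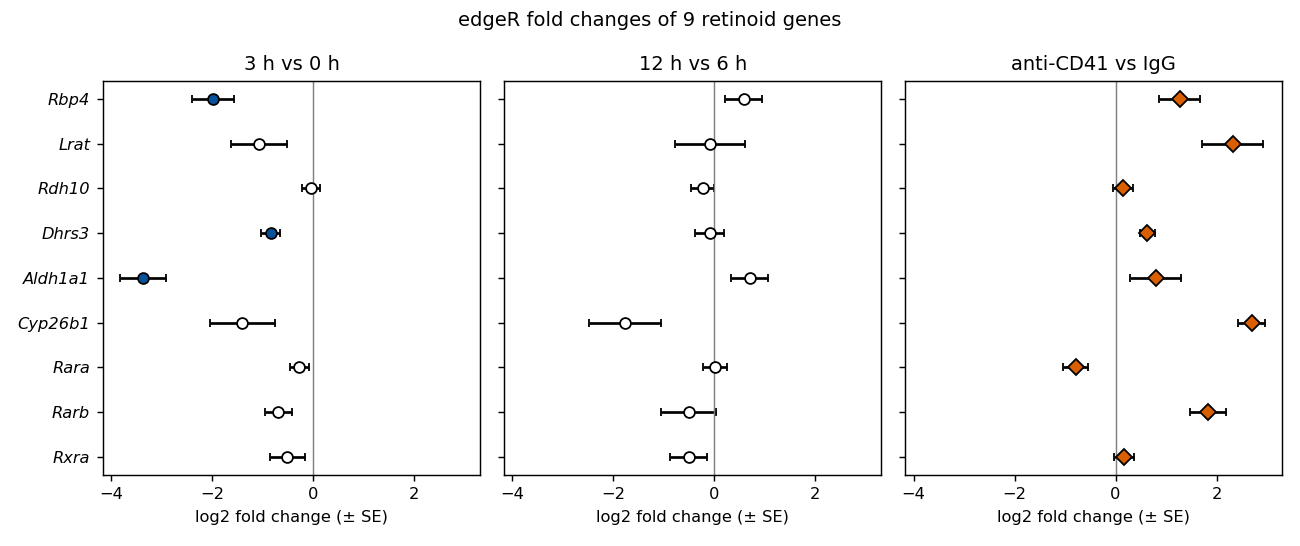
log2 fold changes (x axis) of the 9 genes from edgeR with SE bars, in the 3 comparisons. Filled circles passed an adjusted p of 0.05, open circles did not, and diamonds carry no test. Aldh1a1 is farthest below 0 at 3 h against 0 h (-3.37) and Cyp26b1 farthest above 0 with anti-CD41 against IgG (2.70).

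The wider pathway was followed in a list of 64 further genes, of which 57 were tested at 3 h against 0 h. Of these, 13 rose, 21 fell and 23 did not pass, with a median log2 fold change of -0.31. Over all genes tested, 19.1% were called higher and 23.0% lower, and the counts by list below stand against these shares. Without 3 h replicate 3, 22 of 58 were called, and 1657 of all 14408 genes were called higher and 1855 lower. Of the 4 tested transport and binding genes 0 rose and 3 fell, among them Stra6l and Ttr, which carries the Rbp4 protein in plasma and is also a hepatocyte marker.

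Among 21 further enzymes of retinol and retinal, 4 rose and 8 fell. The largest rise of them was that of Rdh12, a retinal reductase, which averaged 62.8 CPM at 3 h, against 4.97 CPM at 0 h (log2 fold change 3.74 ± 0.56 SE, edgeR adjusted p = 0.00413, and 4.63 without 0 h replicate 1). Aldh1a2, another enzyme of retinoic acid synthesis, averaged 0.617 CPM at 3 h, against 0.849 CPM at 0 h and did not pass (log2 fold change -0.39 ± 0.41 SE, edgeR adjusted p = 0.479). Of 8 genes of retinyl ester and lipid storage 3 rose and 1 fell. Pnpla2, a lipase of lipid droplets, rose to 358 CPM at 3 h, against 104 CPM at 0 h (log2 fold change 1.85 ± 0.15 SE, edgeR adjusted p = 0.00166). Lpl, which releases fatty acids from lipoproteins, fell to 284 CPM, against 1261 CPM at 0 h (log2 fold change -2.07 ± 0.18 SE, edgeR adjusted p = 0.00174).

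Of 11 other receptors and cofactors 4 rose and 2 fell. Rarg, which encodes the retinoic acid receptor gamma, fell to 60.0 CPM at 3 h, against 160 CPM at 0 h (log2 fold change -1.34 ± 0.12 SE, edgeR adjusted p = 0.00177). The coactivators Ncoa1 and Ncoa2 rose, with log2 fold changes of 1.83 ± 0.17 and 0.85 ± 0.10 (SE, edgeR adjusted p = 0.0019 and 0.00244). Rxrb, a partner receptor, had a log2 fold change of 0.36 ± 0.12 (SE, edgeR adjusted p = 0.0482) and was not called in 9 of the 12 alternative settings. Of 12 genes listed as targets of retinoic acid 2 rose and 7 fell. Zbtb16, a zinc-finger transcription factor, rose to 107 CPM at 3 h, against 12.4 CPM at 0 h (log2 fold change 3.17 ± 0.20 SE, edgeR adjusted p = 0.00124). Hic1, a transcriptional repressor, fell to 18.4 CPM, against 115 CPM at 0 h (log2 fold change -2.58 ± 0.23 SE, edgeR adjusted p = 0.00177).

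Several named genes of the pathway were too low to be tested. Cyp26a1, the close relative of Cyp26b1, had 0.372 to 0.418 CPM at 3 h, against 0.514 to 1.60 CPM at 0 h. Crabp1, Crabp2 and Stra6 were not tested in any comparison.

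**Figure D3:**
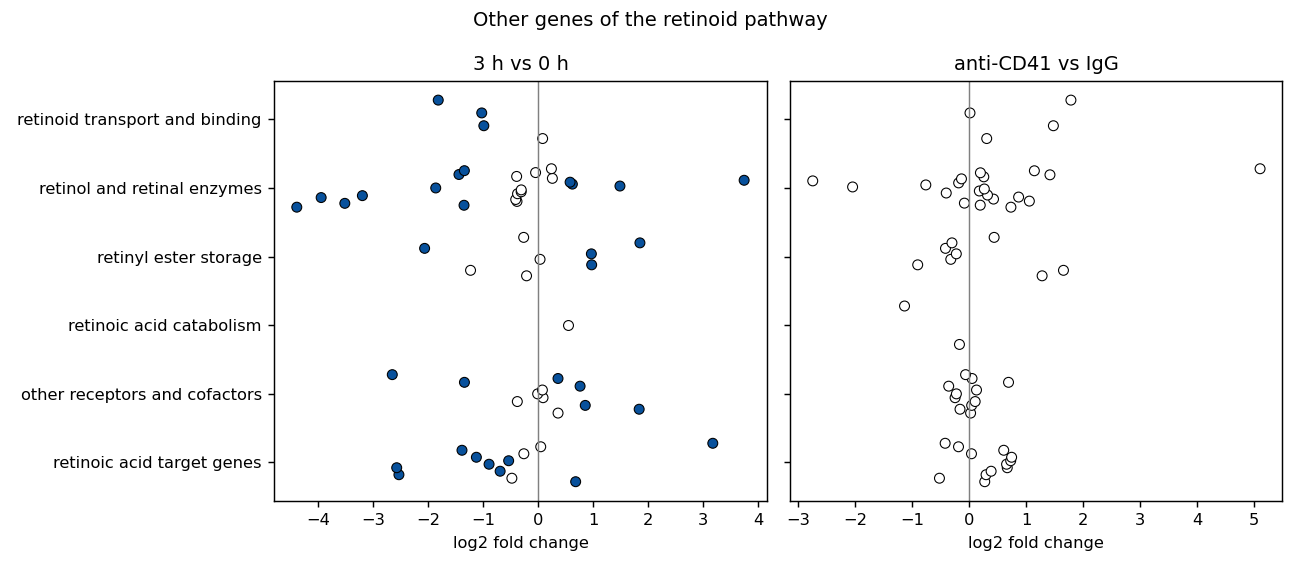
log2 fold changes (x axis) of the other pathway genes, 1 point per gene, by list, at 3 h against 0 h and with anti-CD41 against IgG. Filled points passed an edgeR adjusted p of 0.05: 34 of 57 at 3 h against 0 h and 0 of 57 with anti-CD41.

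At 12 h against 6 h, 0 of the 9 genes were called by edgeR, as were 0 of 14010 genes (0%), and 726 genes had an unadjusted p under 0.05. The groups of 8.99% of all genes did not overlap, 3.62% higher and 5.37% lower at 12 h, and those of 0 of the 9. Of the 9 genes 1, Cyp26b1, had an unadjusted p under 0.05. DESeq2 called 0 of the 9 and limma 0 of the 8 it tested, each with 1 at an unadjusted p under 0.05. Cyp26b1 had 182, 83.5 and 35.3 CPM at 12 h, against 356, 118 and 560 CPM at 6 h, a log2 fold change of -1.77 ± 0.71 (SE, edgeR adjusted p = 0.697). The groups overlapped, because 6 h replicate 2 was lower than 12 h replicate 1.

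Rarb had 18.6, 16.0 and 3.80 CPM at 12 h, against 18.2, 12.4 and 24.1 CPM at 6 h, with 12 h replicate 3 the lowest. Lrat had 4.91, 11.3 and 4.35 CPM at 12 h, against 3.49, 2.85 and 15.2 CPM at 6 h, with 1 library of each group well above the other two. Rxra had 479, 187 and 378 CPM at 12 h, against 500, 476 and 507 CPM at 6 h, so 12 h replicate 2 was the lowest of the 6. The log2 fold changes were -0.51 ± 0.55 for Rarb, -0.08 ± 0.70 for Lrat and -0.51 ± 0.37 for Rxra (SE).

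Rbp4 had 82.3, 107 and 37.0 CPM at 12 h, against 52.3, 54.3 and 43.5 CPM at 6 h. Aldh1a1 had 21.2, 52.6 and 24.1 CPM at 12 h, against 19.7, 16.1 and 23.9 CPM at 6 h. In both genes 12 h replicate 2 was the highest library, and the log2 fold changes were 0.58 ± 0.38 and 0.70 ± 0.37 (SE). Dhrs3 had 143, 136 and 96.6 CPM at 12 h, against 119, 101 and 179 CPM at 6 h. Rara had 100.1, 76.8 and 115 CPM at 12 h, against 107, 82.4 and 99.8 CPM at 6 h. Rdh10 had 10.2, 12.7 and 10.3 CPM at 12 h, against 12.6, 12.2 and 13.8 CPM at 6 h. The groups of these 3 genes overlapped, with log2 fold changes of -0.09 ± 0.29 for Dhrs3, 0.01 ± 0.24 for Rara and -0.23 ± 0.23 for Rdh10 (SE).

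Of 55 other pathway genes tested at 12 h against 6 h, 0 were called by edgeR, with 3 at an unadjusted p under 0.05. DESeq2 called 0 of the 63 it tested, with 6 at an unadjusted p under 0.05, and limma 0 of 44, with 3. Over all genes, unadjusted p was under 0.05 for 726 of 14010 by edgeR and 1257 of 18297 by DESeq2. By limma on log2(FPKM + 1) it was so for 432 of 11829. The 12 h libraries were unlike each other in cell type markers. The sinusoidal endothelial sum was 2137 CPM in replicate 3, and the group reached 12703 CPM at its highest. Replicate 3 also had the lowest hepatocyte (1326 CPM) and stellate (203 CPM) sums of the group and the highest monocyte-derived macrophage sum (5840 CPM). Cyp26b1, Rarb, Lrat, Rbp4 and Dhrs3 were lowest of the group in it, Rara was highest, and Aldh1a1, Rdh10 and Rxra lay between. The part of these markers in the spread of the 12 h values was not tested.

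With anti-CD41 against IgG, the contrast from which the set was chosen, the values are a description. Cyp26b1, Lrat, Rarb and Dhrs3 were higher in every anti-CD41 library than in any IgG library, Rara was lower in every one, and Rbp4, Aldh1a1, Rdh10 and Rxra overlapped. Over all 14905 genes, 25.5% had groups that did not overlap, 18.2% higher and 7.31% lower with anti-CD41. By the edgeR test, 0.0738% of all genes were called, 0.0671% higher and 0.00671% lower. The median log2 fold change was 0.80 for the 9 genes and 0.01 for all genes. Nothing is read from these shares or medians for the 9 genes, since this contrast chose them.

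Cyp26b1 had 248, 276 and 221 CPM with anti-CD41, against 33.7, 25.0 and 47.3 CPM with IgG. The anti-CD41 libraries were close to each other, and the lowest of them lay far above the highest IgG library. The log2 fold change was 2.70 ± 0.27 (SE), a ratio of 6.49. Lrat had 2.58, 4.12 and 2.63 CPM with anti-CD41, against 1.11, 0.484 and 0.193 CPM with IgG. It was the lowest of the 9 genes in count, with IgG replicate 1 nearest to the anti-CD41 libraries, and its log2 fold change was 2.32 ± 0.60 (SE) and 3.10 without that library. Rarb had 6.67, 14.2 and 17.0 CPM with anti-CD41, against 2.82, 3.91 and 3.22 CPM with IgG. The IgG libraries agreed closely and anti-CD41 replicate 1 was the lowest of its group, with a log2 fold change of 1.83 ± 0.36 (SE).

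Dhrs3 had 160, 163 and 158 CPM with anti-CD41, against 91.0, 122 and 79.4 CPM with IgG, a log2 fold change of 0.63 ± 0.14 (SE). Rara went the other way, with 102, 84.7 and 92.5 CPM with anti-CD41, against 117, 124 and 206 CPM with IgG. Its log2 fold change of -0.79 ± 0.26 (SE) leaned on IgG replicate 3, without which it was -0.43.

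Rbp4 had 31.4, 98.1 and 105 CPM with anti-CD41, against 26.9, 32.7 and 31.2 CPM with IgG, so that anti-CD41 replicate 1 fell among the IgG libraries. Its log2 fold change was 1.27 ± 0.41 (SE). Aldh1a1 had 31.2, 81.2 and 68.5 CPM with anti-CD41, against 43.3, 43.7 and 11.8 CPM with IgG, again with replicate 1 of anti-CD41 inside the IgG range (log2 fold change 0.80 ± 0.51 SE, and 0.41 without IgG replicate 3). Rxra had 295, 460 and 420 CPM with anti-CD41, against 287, 402 and 294 CPM with IgG (log2 fold change 0.16 ± 0.20 SE). Rdh10 had 10.5, 13.5 and 13.6 CPM with anti-CD41, against 8.67, 12.8 and 10.2 CPM with IgG (log2 fold change 0.15 ± 0.20 SE).

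Markers of several cell types differed between the same libraries. The sinusoidal endothelial markers summed to 11459, 15373 and 15270 CPM with anti-CD41, against 5104, 8097 and 8732 CPM with IgG. Of these 14 markers 11 were higher without overlap, while 0 were called by edgeR. Of 8 pericentral endothelial markers 7 were higher without overlap and 1, Cdh13, was called, with sums of 533, 648 and 704 CPM with anti-CD41, against 262, 421 and 862 CPM with IgG. The hepatocyte markers summed to 981, 2613 and 2754 CPM with anti-CD41, against 1153, 1308 and 1077 CPM with IgG, so that anti-CD41 replicate 1 lay below the IgG libraries here and inside their range for Rbp4. The stellate cell markers without Lrat summed to 209, 229 and 252 CPM with anti-CD41, against 130, 191 and 256 CPM with IgG, with 3 of 12 higher without overlap. Gfap, a stellate cell marker, had at most 0.126 CPM in any antibody library. Neutrophil markers summed to 817, 374 and 687 CPM with anti-CD41, against 1291, 1089 and 4943 CPM with IgG, and 7 of 9 were lower without overlap. The highest of these sums was in IgG replicate 3, which was also the highest library for Rara. Monocyte-derived macrophage markers summed to 3992, 1982 and 2155 CPM with anti-CD41, against 5413, 5862 and 7094 CPM with IgG, with 8 of 8 log2 fold changes below 0 and 3 lower without overlap. Platelet markers summed to 92.0, 100.5 and 119 CPM with anti-CD41, against 60.6, 95.3 and 253 CPM with IgG, and these groups overlapped. In these 3 lists 0 markers were called by edgeR. The part of these markers in the values of the 9 genes was not tested.

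**Figure D4:**
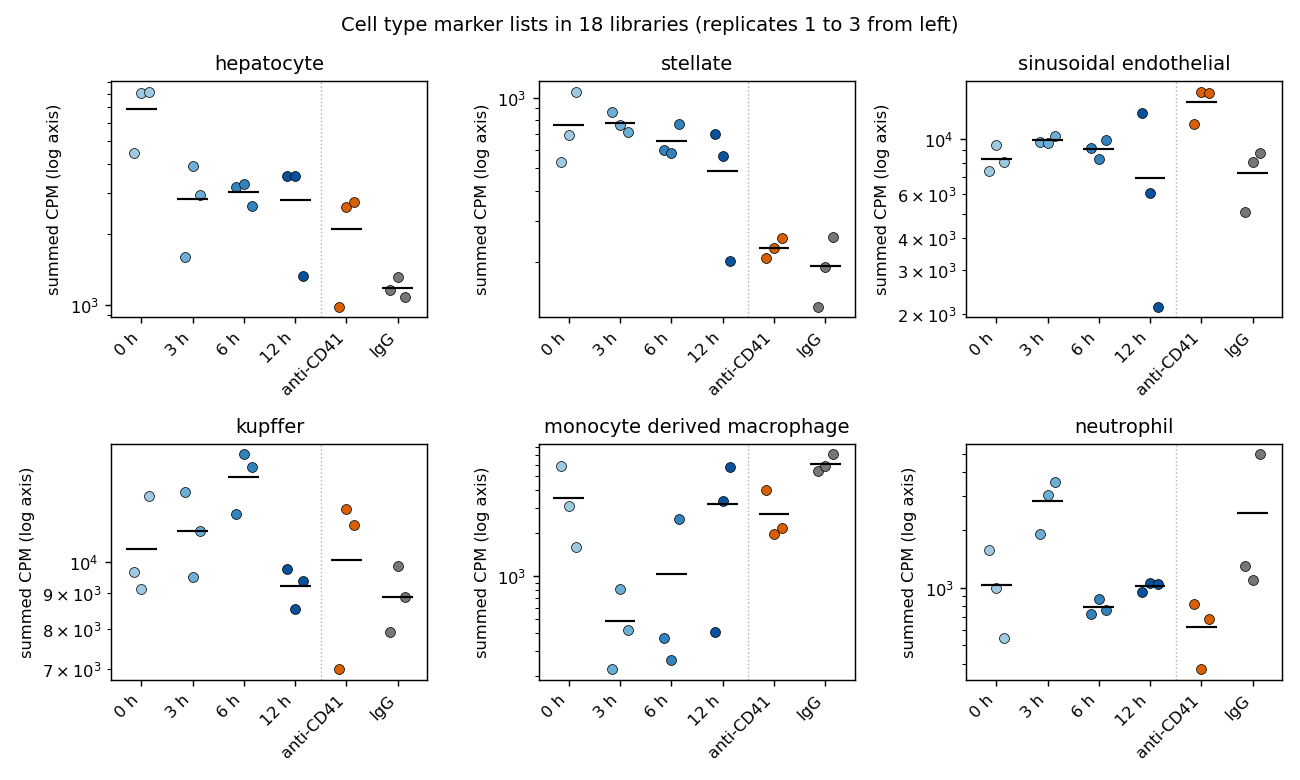
Summed CPM (log axis) of 6 marker lists in each library, by group, with replicates 1 to 3 from left to right and the mean as a line. The anti-CD41 libraries sit between 11459 and 15373 CPM for sinusoidal endothelial markers, all above the IgG libraries at 5104 to 8732 CPM.

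The other pathway genes were tested between the antibody groups. Their values did not choose the 9 genes, but their list, like the marker lists, was chosen with earlier results of these data known. Of 57 tested, 0 were called by edgeR, and 13 had an unadjusted p under 0.05, as did 2757 of all 14905 genes. DESeq2 called 5 of the 61 it tested (3 higher and 2 lower). Over all 19299 genes it tested, it called 623 higher and 444 lower. The median log2 fold change of the 57 was 0.13. Of them, 9 were higher and 4 lower without overlap, where 18.2% and 7.31% of all genes were, so these counts lie near the background. Rarg averaged 116 CPM with anti-CD41 and 67.5 CPM with IgG (log2 fold change 0.69 ± 0.17 SE, edgeR adjusted p = 0.151, DESeq2 adjusted p = 0.0118). Cyp26a1, at 0.527 and 0.538 CPM with anti-CD41 and with IgG, stayed under 1 CPM in all 6 libraries, with a log2 fold change of -0.17 ± 0.61 (SE, edgeR adjusted p = 0.908). Aldh1a2 had a log2 fold change of -0.08 ± 0.38 and Rxrb one of 0.05 ± 0.10 (SE, edgeR adjusted p = 0.931 and 0.799). Of the 12 listed target genes 2 were higher without overlap, Meis1 and Hoxb4, and 0 were called.

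Profiles over the 18 libraries, on log2(CPM + 1) centred on the mean of each table, were compared by Pearson's r and Spearman's rho as a description, over points that share libraries and cell composition. The 18 include the antibody libraries from which the set was chosen. Likeness to marker sums was computed over all 18 only. Among the 9 genes Cyp26b1 was most like Rarb (r = 0.84, rho = 0.86) and next like Dhrs3 (r = 0.76, rho = 0.74). Rbp4 and Aldh1a1 followed each other (r = 0.85, rho = 0.79), as did Aldh1a1 and Dhrs3 (r = 0.81, rho = 0.71). For these pairs in the same order, r was 0.83, 0.73, 0.91 and 0.85 over the 12 time-course libraries alone. Rara had a negative r with each of the other 8 over the 18 libraries, the lowest with Lrat (r = -0.48, rho = -0.58), but with Aldh1a1 rho was 0.0072. Over the 12 time-course libraries alone the r of Rara was positive with Aldh1a1 (0.38), Dhrs3 (0.36), Rbp4 (0.26), Rxra (0.19) and Cyp26b1 (0.19), and -0.39 with Rdh10, -0.17 with Lrat and -0.03 with Rarb.

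Among 9858 candidate genes, those most like Cyp26b1 were Zfp970 (r = 0.88, rho = 0.82), Gna11 (0.87, 0.83), Dmd (0.87, 0.88), Kif26a (0.86, 0.86) and Mtus1 (0.85, 0.83). Of these 5, Gna11 and Mtus1 were also among the top 5 over the 12 time-course libraries alone. Of the 3 genes named for each other member below, 1 each was kept over these 12 libraries for Lrat, Dhrs3, Rarb and Rxra, and 0 for Rbp4, Aldh1a1, Rdh10 and Rara. Rbp4 was most like the lipoprotein genes Apoa1 (r = 0.98) and Apoc3 (0.97) and the urinary protein gene Mup3 (0.97), and it followed the summed hepatocyte markers (r = 0.93, rho = 0.94). Aldh1a1 was most like its close copy Aldh1a7 (r = 0.97), with which reads may be split, then Pgpep1 and Pter (0.97 each). Dhrs3 was most like Meis1 (r = 0.97, rho = 0.98), a homeobox gene on the list of target genes, followed by Mgat4b (0.93) and Arpin (0.92).

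Rarb was most like Ushbp1 (r = 0.95), Efna1 (0.95) and Exoc3l2 (0.94), and it followed the hepatocyte sum (r = 0.80) and the sinusoidal endothelial sum (r = 0.79). For Cyp26b1 the highest r with a marker sum was with sinusoidal endothelial markers (r = 0.71, rho = 0.76). Lrat was most like Nqo2 (r = 0.87), Sntb1 (0.85) and Tbxa2r (0.84), and its r with the other stellate cell markers was 0.35. Rdh10 was most like Cd207 (r = 0.85), Bmi1 (0.84) and Gtpbp10 (0.81), and of the marker sums it followed the Kupffer cell sum most (r = 0.70). Rxra was most like Frmd4a (r = 0.94), Engase (0.93) and Arhgap19 (0.92). Rara was most like Hrh2 (r = 0.90), Emilin2 (0.87) and Fgd3 (0.86).

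**Figure D5:**
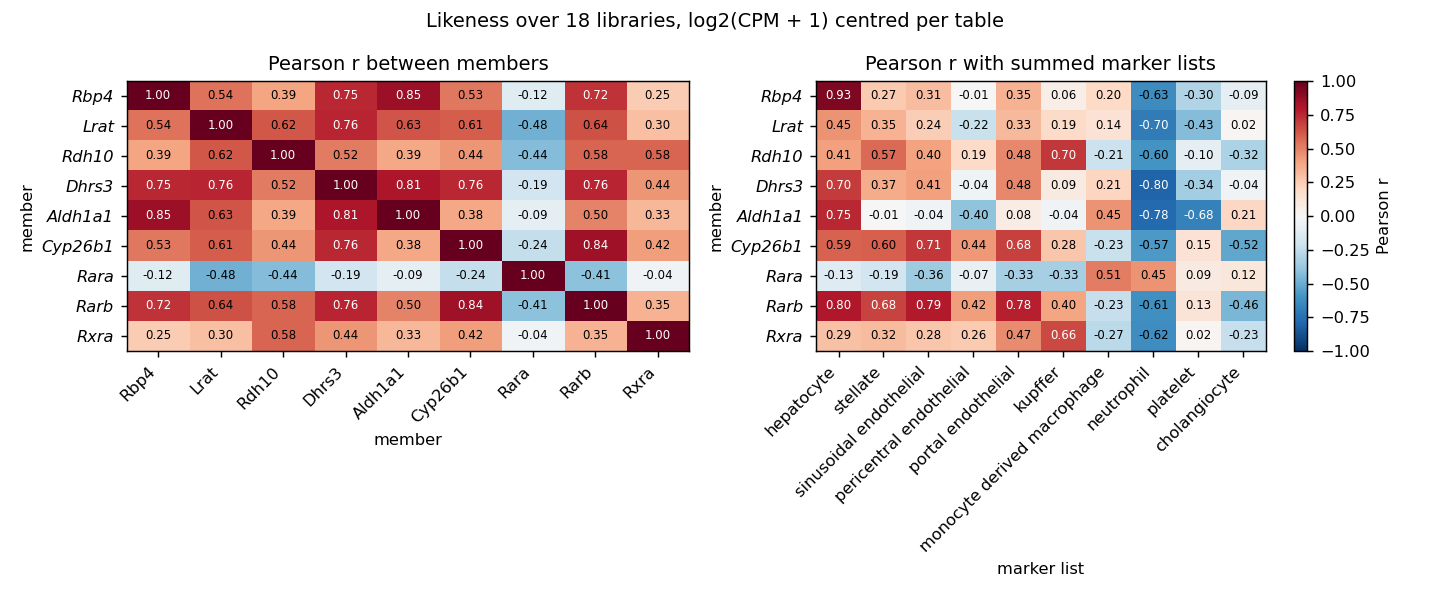
Pearson's r over 18 libraries between the 9 genes (left) and between each gene and the summed level of each marker list (right), on log2(CPM + 1) centred per table, from blue (-1) to red (1). Rbp4 with the hepatocyte sum (0.93) and Rbp4 with Aldh1a1 (0.85) are high, and the row of Rara is mostly negative.

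The genes lie on build GRCm38 at chr19:38116629-38125281 (Rbp4), chr3:82892579-82903973 (Lrat), chr1:16105774-16133734 (Rdh10), chr4:144892827-144928209 (Dhrs3), chr19:20492715-20643465 (Aldh1a1), chr6:84571414-84593908 (Cyp26b1), chr11:98927818-98974942 (Rara), chr14:16430839-16819156 (Rarb) and chr2:27676440-27762957 (Rxra). Whether counting used strand is not given in the sources used here, so reads from a gene and an overlapping partner on the opposite strand cannot be told apart. Such partners are annotated for Rarb (the protein-coding Top2b and Gm48162), Lrat (Rbm46os) and Aldh1a1 (C730002L08Rik and Gm6684), and Rara overlaps the small RNA gene Gm22061 on its own strand.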

How the data were processed

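RNA of 18 Kupffer cell libraries was analysed from 3 deposited tables. The authors deposited expected counts, FPKM and TPM per gene for the time course (35.3% to 36.2% of the expected counts were not whole) and whole-number counts for the antibody groups, per the file headers and values. TPM was not used. Reads were aligned with HISAT2 to GRCm38, per the submitters' processing notes. Which program and annotation counted the reads, and with which settings, is not given in the sources used here.

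Expected counts were rounded to whole numbers. CPM was computed from the deposited counts over the library total. Fits were made separately for each comparison and table, over all genes, with edgeR 4.0.16 (R 4.3.3): filterByExpr with a minimum count of 10, TMM, quasi-likelihood test, two-sided, Benjamini-Hochberg adjustment over all genes, threshold 0.05. "Rose", "fell" and "called" mean past this threshold, and 2 groups do not overlap where every library of one lies above every library of the other in CPM. An exact permutation test of 3 against 3 cannot go below 0.1 and was not used. The fits were tested on simulated data with known 2-fold and 4-fold changes. False calls were 20 of 163 at 3 h against 0 h and 2 of 50 at 12 h against 6 h. With anti-CD41 they were 17 of 156. In the same order, 47%, 0% and 50% of 2-fold changes were recovered, and 96%, 48% and 89% of 4-fold changes. The false share of calls at 3 h against 0 h and with anti-CD41 was thus above the nominal 0.05. Each simulation was run once and changed only a small part of the genes. In the data, 42.1% of genes were called at 3 h against 0 h, so these rates may not hold for that fit. The common biological coefficient of variation was 0.201 (3 h and 0 h), 0.371 (12 h and 6 h) and 0.267 (antibody groups).

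The 9 genes, the pathway list and the marker lists were chosen with earlier results of these data known. The text names the 9 genes, 7 fixed pathway genes, up to 8 called pathway genes with the smallest p per comparison, and the 5 (Cyp26b1) or 3 (other genes) profiles with the highest r among genes with a mean of at least 5 CPM per table, without predicted names. A further fixed pathway gene is not reported here by name. Ttr, Stra6l, Meis1, Hoxb4, Cdh13 and Gfap were named after their values were seen. Cdh5 is on the Kupffer and the endothelial list, Ttr on the hepatocyte and the pathway list.

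Among symbols of the antibody table, 27 had turned into dates and were restored from identifiers. Where several identifiers shared a symbol, the most counted kept it. The other entries, 19 in number, were named by identifier and stayed in the fits. Alternatives were each library left out, no expression filter, DESeq2 1.42.0 and its size factors within edgeR, a replicate block and, for the time course, limma 3.58.1 on log2(FPKM + 1) and log2(FPKM + 0.1) with a minimum of 1 FPKM.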

Additional observations from a re-analysis of the deposited data

How the results depend on the processing

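Of 406 alternative values for 35 single-gene results with a test, 376 kept direction and side of the threshold, 10 lost a call, 5 gained one and 15 changed sign. For the 9 genes with anti-CD41, which carry no test, 89 of 90 kept direction and moved by less than the spread between replicates, and 1 (Lrat without IgG replicate 1) moved by more. With 1 library left out, called genes among the 9 at 3 h against 0 h ranged from 2 to 6, called pathway genes from 22 to 39 there and from 0 to 1 with anti-CD41 (Ttr, without anti-CD41 replicate 1). For the pathway with anti-CD41, DESeq2 called 5. Over the 12 time-course libraries 2 of the 5 genes most like Cyp26b1 were kept, and 0 or 1 of the 3 named for each other member.

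Sign changes were all in fold changes that did not pass, and the cause was not tested. With 1 library left out, log2 fold changes at 3 h against 0 h ranged from -0.16 to 0.12 (Rdh10) and -0.68 to 0.016 (Aldh1a2), at 12 h against 6 h from -0.61 to 1.12 (Lrat), -0.24 to 0.19 (Dhrs3) and -0.091 to 0.16 (Rara), and with anti-CD41 from -0.23 to 0.16 (Aldh1a2) and -0.48 to 0.52 (Cyp26a1).

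Whether replicate numbers pair the samples cannot be told from these data. Correlations of same-numbered deviations were -0.126 to 0.273, -0.0464 to 0.271 and 0.0368 to 0.174 in the 3 comparisons. Those of differently numbered deviations were -0.280 to 0.203, -0.331 to 0.201 and -0.147 to 0.0369. With the replicate number as a block, 4 of the 9 genes were called at 3 h against 0 h (Rarb added, edgeR adjusted p = 0.017), 2 pathway genes with anti-CD41, and at 12 h against 6 h the log2 fold changes of Lrat and Rara were 0.23 and -0.0079. For all genes with anti-CD41 the calls were 10 higher and 1 lower as reported, 295 and 89 with the block and 623 and 444 by DESeq2. With 1 library left out they ranged from 0 (without anti-CD41 replicate 2 or 3 or IgG replicate 2) to 91 and 19 (without anti-CD41 replicate 1). At 3 h against 0 h they were 2703 higher and 3264 lower as reported, and 2188 and 2853 with the block. Without 0 h replicate 1 they were 2671 and 3521, and without 0 h replicate 2 they were 1599 and 2116. Without 3 h replicate 3 they were 1657 and 1855. At 12 h against 6 h DESeq2 called 2 higher and 1 lower, and edgeR without 12 h replicate 1 called 1 and 1. Lrat with IgG rests on few counts, and 0 calls at 12 h against 6 h do not show that levels did not differ.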
